A study of Homo sapiens with 16 samples.

Results

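The sites described here are stretches of DNA bound by the cohesin subunit SMC1 in 2 Ewing sarcoma cell lines, TC-32 and TC-71, that also lay in acetylated chromatin of TC-32. A site was taken when its SMC1 interval in the TC-32 list overlapped, by at least 1 bp each, an SMC1 interval of TC-71 and an H3K27ac domain of TC-32, on chromosomes 1 to 22 and X. This gave 2532 sites of 32720 distinct TC-32 SMC1 intervals, which is 7.74%. They made up 15.4% (95% interval 14.8 to 15.9%) of the 16460 TC-32 intervals shared with TC-71, and they met 2553 distinct TC-71 intervals. The sites were chosen by measured values, namely their presence in the SMC1 lists of both lines and in the H3K27ac list of TC-32, so neither sharing nor TC-32 acetylation is a result.

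Chromatin immunoprecipitation with sequencing had been done with antibodies against SMC1, H3K27ac and BORIS, beside an input without antibody. Each line had 2 samples per antibody and for input, 16 samples in 8 groups. Per the labels, TC-32 belongs to the diagnosis phase of therapy and TC-71 to the phase after chemotherapy. Both are established Ewing sarcoma lines, grown in the same medium, and the labels name no drug, time or genetic change.

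Each line is a single line of cells, so what differs between them cannot be told apart from the phase of therapy. The deposited data hold 1 peak list per line and antibody, to which both samples point, so no value has a spread over replicates and no difference between lines was tested. Shares are given with exact Clopper-Pearson 95% intervals and medians with binomial 95% intervals, which cover counting error only. The TC-71 lists were shorter, with 18264 SMC1 intervals and 26334 H3K27ac domains against 32720 and 36355 in TC-32. The BORIS list held 534 intervals in TC-71 and 6 in TC-32. A site missing from a list may lie below that list's threshold.

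Cohesin is a ring of SMC1, SMC3, RAD21 and a STAG subunit that encircles DNA and extrudes loops. CTCF, a zinc finger protein, halts cohesin at its own sites, which gives shared loop anchors in many cell types. Cohesin is also found with the loader NIPBL at active enhancers and promoters, where acetylation of histone H3 at lysine 27 marks the nucleosomes. BORIS, the product of CTCFL, is a germline paralogue of CTCF with a closely related zinc finger domain, and tumour cells can express it. CTCF and NIPBL were not profiled here.

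Among the 2532 sites, the median fold enrichment of SMC1 over input in the authors' TC-32 list was 8.42 (8.18 to 8.59), with quartiles of 6.03 and 11.5. Shared intervals outside TC-32 acetylation, 13928 in number, had a median of 8.85. The 5940 acetylated intervals listed in TC-32 alone had a median of 4.26. By rank of −log10 q within the TC-32 list, where 100 is the strongest, the medians were 71.9, 72.1 and 18.4. The shared acetylated sites thus stood beside the other shared sites in SMC1 rank, and far above the acetylated sites of TC-32 alone. In the TC-71 list their median rank was 50.3 (47.7 to 52.0) against 54.0 for the other shared sites. Sharing was part of the rule and goes with strength, so these values describe the sites and test nothing.

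The SMC1 intervals of the 2532 sites were 304 bp wide at the median, against 260 bp in the other shared sites. The summits in the 2 lines lay 11 bp apart at the median, with quartiles of 5 and 22 bp. Within 50 bp of each other were 92.7% (91.6 to 93.7%) of the summit pairs, against 98.6% at shared sites outside acetylation. Summits farther apart were thus rare, and rarer still outside acetylation.

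The 2532 sites lay in 2428 TC-32 H3K27ac domains, 6.68% of the 36355 domains. A single site was held by 2331 of these domains, 93 held 2, 3 held 3 and 1 held 6. The 201 sites that shared a domain were spaced by a median of 1129 bp (891 to 1286). Most sites were thus solitary in their domain. Across the genome the nearest other site was 151684 bp away at the median, and 11.1% (282 sites) had another within 10 kb. A TC-32-only SMC1 interval was held as well by 413 of the 2428 domains, 17.0% (15.5 to 18.6%).

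Domains with a shared site were 1761 bp wide at the median (1686 to 1856), with quartiles of 935 and 3348 bp. The 4508 domains that held SMC1 only at TC-32-only intervals were wider, at 2338 bp (2278 to 2407). The 29419 domains without SMC1 were narrower, at 1111 bp (1097 to 1125). At least 5 kb was reached by 14.95% (363), 17.5% (788) and 2.53% (744) of the 3 kinds. In rank by −log10 q, the first 2 kinds were close, with medians of 70.8 (69.4 to 72.3) and 69.4, and domains without SMC1 followed at 43.9. Their fold enrichments were 4.44, 4.45 and 3.38. The domains of the shared sites were thus as strong as those of the TC-32-only sites but narrower. Width is partly set by the rule. Counted per shared site, the median width was 679 bp where the SMC1 summit lay outside the domain and 2232 bp where it lay inside. The SMC1 intervals were also wider at shared acetylated than at TC-32-only acetylated sites, 304 against 225 bp. What this adds to the difference in domain width was not tested. They also covered the whole range of rank: 17.9% of the sites (454) lay in the top decile of domains, and 2.73% (69) in the lowest.

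**Figure D1:**
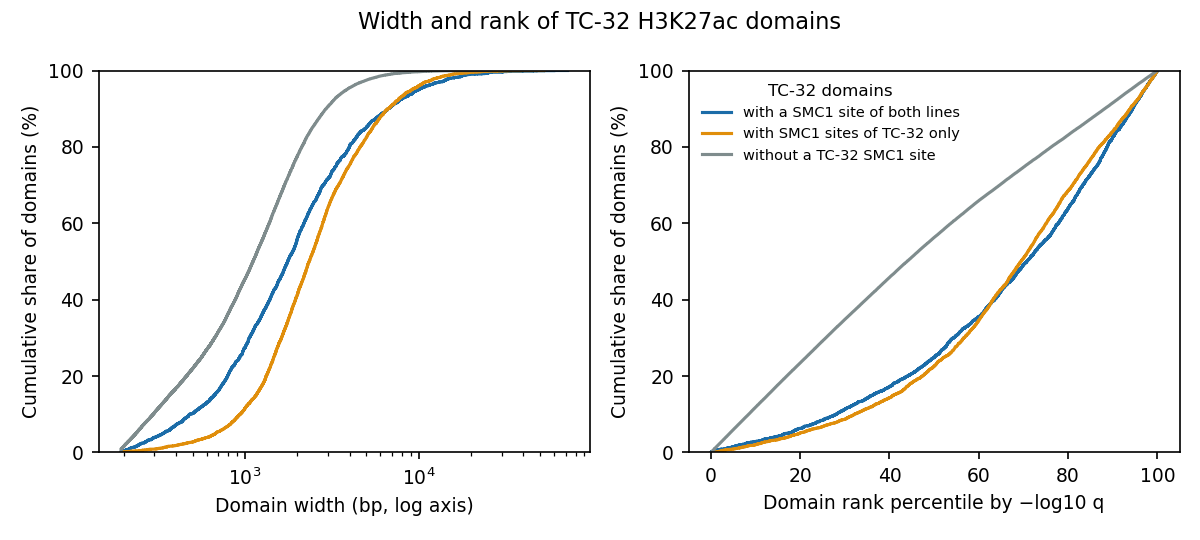
Cumulative share of TC-32 H3K27ac domains (y axis, percent) by domain width in bp (left, log axis) and by rank percentile of −log10 q within the list (right), for domains with a shared SMC1 site, with TC-32-only SMC1 and without SMC1. The width curve of the shared sites (median 1761 bp) runs between the other kinds (2338 and 1111 bp), while in rank it lies near that of the TC-32-only sites (70.8 and 69.4).

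A wide domain has more room for a site, and the share of domains with a shared site rose from 4.58% (666 of 14556) below 1 kb through 6.04% and 8.37% to 19.2% (363 of 1895) from 5 kb on. Per base the order was the reverse. Counted by overlap, the sites numbered 845 per 10 Mb of domain sequence in domains below 1 kb, 422 at 1 to 2 kb, 303 at 2 to 5 kb and 253 from 5 kb on. Overlap at the rim counts for more in narrow domains. Counted by summits inside the domain, the numbers were 336, 349, 275 and 245 per 10 Mb. The TC-32-only summits inside went the other way, from 455 through 834 and 936 to 998 per 10 Mb. In the widest domains these outnumbered the shared ones by 1598 to 392.

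Domains within 10 kb were also stitched and ranked by length times fold enrichment, which gave 1094 top clusters in TC-32, regions of the kind called super-enhancers elsewhere. They took in 12.7% of TC-32 domains and 27.3% of acetylated bases. Of the shared sites 19.2% (486; 17.7 to 20.8%) lay in a top cluster, against 25.2% of the TC-32-only acetylated sites. The share was thus above that of domains and below that of bases. A shared site was held by 384 of the 1094 clusters, 35.1%. Of the 486 sites, 46.1% (224) also lay in a top cluster of TC-71. No such share is set beside it for the TC-32-only acetylated sites or for all TC-32 top clusters, so it describes these sites only.

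The rule did not use the TC-71 acetylation list. It did ask for a TC-71 SMC1 interval, which the TC-32-only sites lack, and both TC-71 lists were made against the same input. Of the 2532 sites, 70.0% (1773; 68.2 to 71.8%) overlapped a TC-71 H3K27ac domain, against 17.9% of all TC-32 SMC1 intervals. The share was 54.2% (52.9 to 55.4%) at TC-32-only acetylated sites and 4.14% (3.82 to 4.49%) at shared sites outside TC-32 acetylation. Acetylated cohesin sites shared by both lines were thus acetylated in TC-71 more often than those listed in TC-32 alone, by more than counting error. The size of this gap varied with the settings run. It was smallest with lists of equal length, at 71.7% (69.6 to 73.7%) against 60.4% (56.9 to 63.8%). It was widest with the SMC1 summit required inside the TC-32 domain, at 75.7% against 55.3%.

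Overlap with TC-71 rose with domain rank, so the sites were read by the rank of their TC-32 domain. From the lowest to the highest quartile of domains, 38.0% (31.4 to 45.1%), 43.6%, 65.9% and 87.9% (85.9 to 89.8%) of the shared sites were acetylated in TC-71. The TC-32-only sites gave 17.1%, 24.6%, 39.7% and 77.8% (76.2 to 79.3%). The shared sites were thus higher in each quartile. By width the shares were 51.9%, 74.7%, 78.4% and 76.5% from the narrowest to the widest class, against 35.1%, 47.4%, 53.0% and 68.7%.

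Within the shared sites, a higher SMC1 rank went with less TC-71 acetylation. From the lowest to the highest SMC1 quartile of the whole list, the shares were 80.1%, 77.0%, 71.6% and 65.0% (62.1 to 67.7%). The order was the reverse of that by domain rank, where the share rose. From the lowest to the highest SMC1 quartile, the median domain width of these sites also went from 2319 to 1540 bp. The share with the SMC1 summit outside the domain went from 12.2% to 32.1%. SMC1 rank was not tested apart from width and position. The TC-32-only acetylated sites gave 52.5%, 56.4%, 59.9% and 47.6% (37.8 to 57.6%). The shared sites were thus acetylated in TC-71 more often in each SMC1 quartile too, also in the highest, with 1147 against 105 sites.

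Counted by domain, 78.5% (1906 of 2428; 76.8 to 80.1%) of those with a shared site overlapped a TC-71 domain, beside 47.1% of all TC-32 domains. The share was 57.6% (56.1 to 59.0%) for domains with TC-32-only SMC1 and 42.8% (42.3 to 43.4%) for those without SMC1. Weighted to the same rank deciles, the last 2 became 58.4% and 63.4%. Weighted to the same width deciles, they became 53.5% and 50.8%. The lead of the shared-site domains over domains without SMC1 was 15.1 percentage points after the weighting by rank. It was 9.08 points under a stricter rule for both sites and outcome, with 65.2% against 56.1%. There the TC-32 domain and a TC-71 SMC1 interval each had to cover at least 50% of the TC-32 SMC1 interval. A TC-71 domain also had to cover at least 50% of the TC-32 domain, so the 2 leads differ in what counts as overlap. The deciles that follow use overlap of at least 1 bp. In the lowest decile 39.1% (27.6 to 51.6%) of the shared-site domains met a TC-71 domain, against 15.2% with TC-32-only SMC1 and 15.7% without SMC1. In the seventh, 78.7% stood against 46.4% and 55.1%. In the highest, 99.3%, 96.0% and 98.8% lay close together. The difference from domains without SMC1 was thus seen in weak and middle domains and was small among the strongest, with 97.1% against 93.3% in the ninth decile. Domains with TC-32-only SMC1 stood at 81.9% in the ninth, so the difference from them was small in the highest decile alone.

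**Figure D2:**
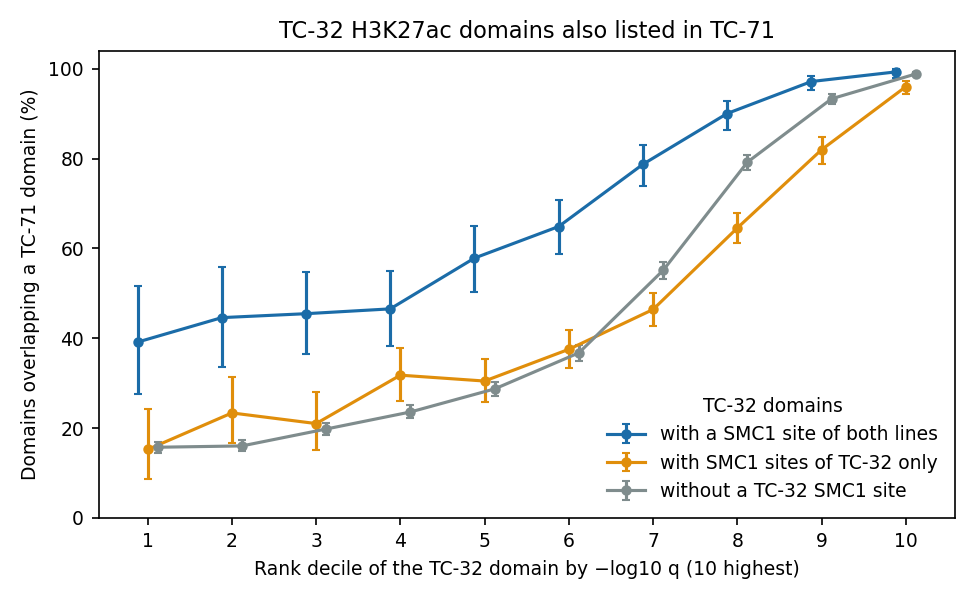
Share of TC-32 H3K27ac domains that overlapped a TC-71 domain (y axis, percent, with 95% binomial intervals) by rank decile of the TC-32 domain (x axis, 10 is the strongest), for domains with a shared SMC1 site, with TC-32-only SMC1 and without SMC1. The shared-site domains start at 39.1% in the lowest decile and reach 99.3% in the highest, where the other kinds stand at 96.0% and 98.8%.

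The 759 sites without TC-71 acetylation were split by the distance to the nearest TC-71 domain. Within 500 bp were 173 (22.8%), within 5 kb 280 (36.9%), within 10 kb 351 (46.2%) and within 50 kb 570 (75.1%). The median gap was 12562 bp. About 1 in 5 thus bordered on TC-71 acetylation, and about as many lay more than 50 kb from any.

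The sites acetylated in both lines (1773) and in TC-32 alone (759) differed in other measures. Their TC-32 domains were 2014 and 1226 bp wide at the median, with median ranks of 78.6 and 51.5. The SMC1 fold in TC-32 was 8.09 and 9.23, and the median TC-71 SMC1 rank 47.2 and 56.9. Sites acetylated in TC-32 alone thus had the narrower, weaker domain and the stronger SMC1 in both lines. Where both lines were acetylated, the TC-71 domain was 2041 bp wide at the median, and the TC-32 domain was the wider of the pair at 53.2% (944).

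The distance of the SMC1 summit from the centre of its domain, as a share of the distance from centre to edge, was 0.519 (0.495 to 0.544) at the median, with quartiles of 0.253 and 0.974. On this scale 0 is the centre, 1 the edge, and more than 1 means that the summit lay outside with only the flank of the interval inside. Summits spread evenly over their domains would give 0.5 by construction. The TC-32-only acetylated sites had a median of 0.323 (0.312 to 0.332). With summits inside alone, the medians were 0.384 (0.365 to 0.405) and 0.305, both nearer the centre than even placement, with the shared sites the farther out of the 2 kinds. The summit was outside at 24.2% (612; 22.5 to 25.9%) of the shared sites and 4.65% (276; 4.13 to 5.21%) of the TC-32-only sites. With SMC1 and H3K27ac lists cut to equal length in both lines, the shares were 26.0% (24.0 to 28.0%) and 10.0% (8.05 to 12.3%), so the gap between the 2 kinds was smaller. With at least 50% of the SMC1 interval covered, by the TC-32 domain and by a TC-71 SMC1 interval each, few summits are outside by construction. The share among the shared sites was then 2.22%, and the median relative distance was 0.402. The 612 summits lay 84 bp beyond the edge at the median, with quartiles of 55 and 119 bp.

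Inside the domains, 135 summits (5.33%) lay within 200 bp of the edge, 700 (27.6%) at 200 to 500 bp, 539 (21.3%) at 500 to 1000 bp and 546 (21.6%) deeper. Counted per Mb of sequence, over all shared SMC1 sites near a TC-32 domain, the density was 6.72 at 1000 to 2000 bp outside the edge. It rose to 17.5 at 200 to 500 bp outside and to 53.5 (778 summits) in the last 200 bp outside. It was 9.69 (135) in the first 200 bp inside, 44.2 (700) at 200 to 500 bp inside and 28.4 at 1000 to 2000 bp inside. Summits were thus dense in the last 200 bp outside and at 200 to 500 bp inside, and sparse in the first 200 bp inside.

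The TC-32-only sites had a shallower version of the same gap, with 34.7 per Mb in the last 200 bp outside, 17.9 in the first 200 bp inside and 63.2 at 200 to 500 bp. Unlike the shared sites, they went on rising to 133 per Mb at 1000 to 2000 bp inside. With TC-71 summits and TC-71 domains, the shared sites gave 66.5 (700 summits), 11.9 (119) and 56.2 per Mb in the same 3 windows. The gap just inside the edge was thus present in both lines' lists. How the authors' caller sets the edge of a domain was not tested.

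**Figure D3:**
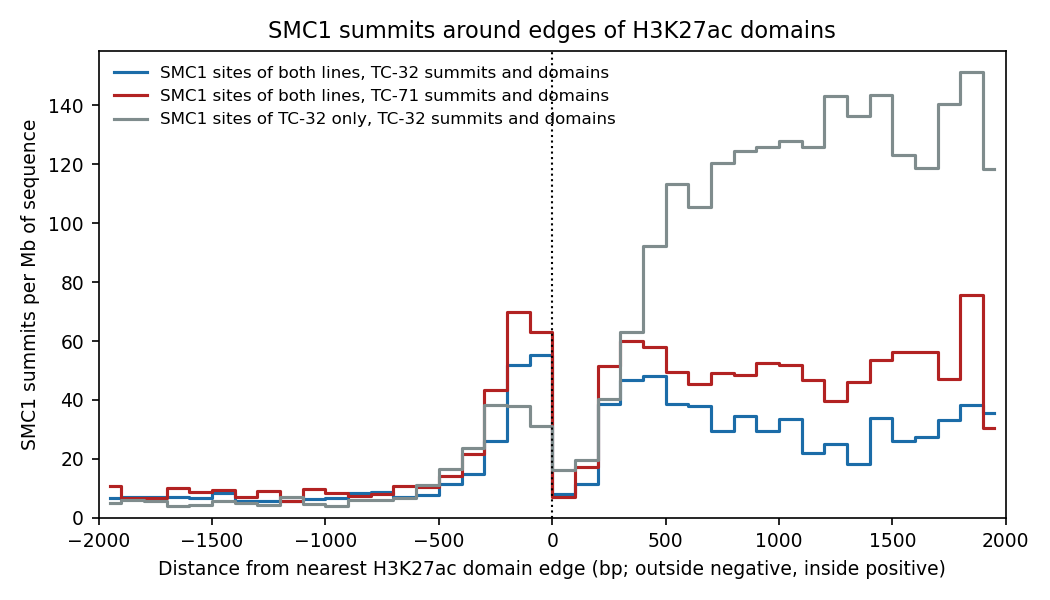
SMC1 summits per Mb (y axis) by distance from the nearest H3K27ac domain edge in bp (x axis, negative outside, positive inside the domain), for shared sites in TC-32, TC-32-only sites and shared sites measured with TC-71 summits and domains. Both curves of shared sites are high in the last 200 bp outside (53.5 and 66.5 per Mb), low in the first 200 bp inside (9.69 and 11.9) and high again at 200 to 500 bp (44.2 and 56.2).

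Position went with the width of the domain. The summit lay outside at 60.2% of shared sites in domains below 1 kb, 17.5% at 1 to 2 kb, 9.35% at 2 to 5 kb and 3.21% from 5 kb on. The TC-32-only sites gave 34.7%, 3.34%, 1.20% and 0.436%. The shared sites were thus higher in each width class, and the outer position was for the most part one of narrow domains. In domains from 5 kb on, the median relative distance was 0.452 and 0.366.

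Position also went with SMC1 rank. From the lowest to the highest SMC1 quartile, the median relative distance of the shared sites was 0.362, 0.438, 0.513 and 0.626 (0.573 to 0.663), and the summit was outside at 12.2%, 11.7%, 21.8% (19.0 to 24.8%) and 32.1% (29.4 to 34.9%). The TC-32-only sites gave 0.314, 0.322, 0.371 and 0.434, with 2.76%, 5.15%, 12.1% (9.50 to 15.1%) and 23.8% (16.0 to 33.1%) outside. The top quartile held 105 TC-32-only sites, and there the intervals of the 2 kinds overlapped. A strong peak is also a wide interval that reaches a domain from farther out, and this share of the difference was not tested.

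The position was alike in both lines. Of the 320 both-line acetylated sites whose summit lay outside the TC-32 domain, 64.1% (205; 58.5 to 69.3%) lay outside the TC-71 domain too. Of the 1453 inside in TC-32, 12.3% (179; 10.7 to 14.1%) lay outside in TC-71. The summit was on the same side of the domain centre in both lines at 81.0% (1436) of sites. At a relative distance of 0.5 or more in TC-32, with outside summits included, the share was 91.2% (757 of 830). Below 0.5 it was 72.0% (679 of 943). The median relative distance was 0.469 in TC-32 and 0.478 in TC-71.

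The outside summits were also placed against the next domain. No gap (0) between neighbouring TC-32 domains was 500 bp or less, and the smallest was 773 bp. Of the 612 outside summits, 11 (1.80%) had another domain on the far side within 1 kb and 79 (12.9%) within 5 kb. Most outside summits flanked acetylation on 1 side. Short gaps were rare in the whole list, with 1658 of 36332 gaps at most 1 kb, so this was not read as particular to these sites. Acetylation in TC-71 was found at 52.3% of sites with the summit outside, 68.1% of those up to 500 bp inside, 80.9% of those at 500 to 1000 bp and 82.1% of those deeper.

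The rule's threshold of 1 bp cuts through this rim. Sites that overlapped the domain by 100 bp or less numbered 382, of which 45.3% were acetylated in TC-71 and 6.54% overlapped TC-71 BORIS. Shared sites left out with a domain within 100 bp numbered 253, of which 29.2% were acetylated in TC-71 and 4.74% overlapped BORIS. At 8044 shared sites with no domain within 20 kb the values were 2.78% and 0.733%. Sites just inside and just outside the rule were thus nearer to each other than to distant sites.

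BORIS was not part of the rule either. A TC-71 BORIS interval was met by 7.15% (181; 6.18 to 8.22%) of the 2532 sites, against 1.2% of all TC-32 SMC1 intervals. The share was 0.955% (133; 0.800 to 1.13%) at shared sites outside TC-32 acetylation and 1.06% (63; 0.816 to 1.35%) at TC-32-only acetylated sites. The 181 sites met 182 of the 534 BORIS intervals. The share at TC-32-only acetylated sites was 1.83% (1.03 to 3.01%) with lists of equal length and 1.56% at an SMC1 −log10 q of at least 5, while that at the shared acetylated sites was 7.63% and 7.09%. Sharing alone and acetylation alone thus gave about 1 or 2 sites in 100, and both together about 7. The TC-32-only sites have no SMC1 interval in the line in which BORIS was read. Among the shared sites outside TC-32 acetylation, 3.29% (19 of 577) with a TC-71 domain met BORIS and 0.854% (114 of 13351) without.

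The share with BORIS did not follow the strength of SMC1. From the lowest to the highest SMC1 quartile it was 6.41%, 7.26%, 7.98% and 6.63% of the shared acetylated sites. The other shared sites gave 1.24%, 0.731%, 1.01% and 0.965%. The TC-32-only acetylated sites gave 0.732%, 1.57%, 1.44% and 2.86%, the last from 3 of 105 sites with an interval of 0.593 to 8.12%. The difference from the other shared sites was thus present at each SMC1 strength, while that from TC-32-only sites could not be seen in the top quartile at this number.

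**Figure D4:**
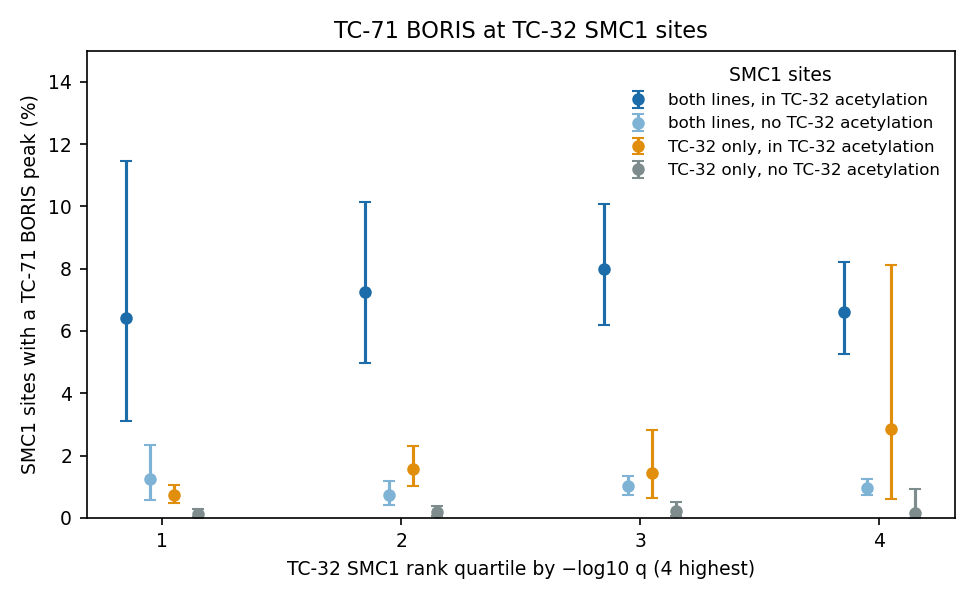
Share of TC-32 SMC1 sites that overlapped a TC-71 BORIS interval (y axis, percent, with 95% binomial intervals) by quartile of SMC1 rank (x axis, 4 is the strongest). Drawn are shared acetylated, shared unacetylated, TC-32-only acetylated and TC-32-only unacetylated sites. The shared acetylated sites lie between 6.41% and 7.98% and the shared unacetylated sites between 0.731% and 1.24%. The TC-32-only unacetylated sites lie between 0.111% and 0.218%.

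BORIS did go with the strength of the acetylated domain. In the lowest 2 quartiles of domain rank it was met by 4.88% (10 of 205) and 1.97% (8 of 406) of the sites, then by 5.28% (41) and, in the highest, by 10.7% (122 of 1145; 8.93 to 12.6%). By width the shares were 6.68%, 8.95%, 7.61% and 3.95% from the narrowest to the widest class. Sites with BORIS had domains of median rank 83.2 and width 1659 bp, against 70.0 and 1845 bp without. They thus lay in stronger domains that were no wider. Their SMC1 fold was 8.17 against 8.43, and the summit was outside the domain at 22.7% and 24.3%.

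TC-71 acetylation was found at 86.2% (156 of 181; 80.3 to 90.9%) of sites with BORIS and 68.8% (66.9 to 70.7%) of those without. Read the other way, 8.80% (156; 7.52 to 10.2%) of the both-line acetylated sites and 3.29% (25; 2.14 to 4.82%) of those acetylated in TC-32 alone met BORIS. The BORIS summit lay 18 bp from the SMC1 summit at the median, and within 50 bp at 88.4% (160 of 181). Domains with a shared site held BORIS in 6.84% (166), against 0.82% of all TC-32 domains. Domains with TC-32-only SMC1 gave 1.33% and those without SMC1 0.245%, or 1.43% and 0.464% when weighted to the same ranks. In TC-32, 3 of the 6 BORIS intervals lay at shared acetylated sites, in 11q12.3, 12q21.31 and 17q22. Of the SMC1 intervals, 3 of the 2532 shared acetylated sites and 5 of all 32720 (0.0153%) met one. With 6 intervals in the list, no share was drawn from them.

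Single sites follow, with hg19 coordinates counted from 1 and the fold enrichments of the authors' lists. Genes given with a band are background on that band and were not tested for overlap, since no hg19 gene models were used here.

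The domain with the most shared sites was at 8q24.21, chr8:128745252-128752792, 7541 bp wide with a fold of 6.81. This is the band of MYC, a transcription factor that drives growth. Its 6 SMC1 sites had folds of 5.93, 5.52, 2.84, 13.7, 6.30 and 2.92 in TC-32, read along the chromosome, and 2.75, 2.29, 2.24, 4.54, 4.87 and 2.16 in TC-71. By −log10 q the fourth was the strongest in each line, and by fold the fifth was the highest in TC-71. The summits were 460 to 1635 bp apart. TC-71 had a single domain over all 6, of 8484 bp and fold 4.50, and a BORIS interval of fold 2.36 at the fifth. The whole band held 21 shared acetylated sites of 33 shared SMC1 intervals, 63.6%, and each of the 21 was acetylated in TC-71 as well.

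**Figure D5:**
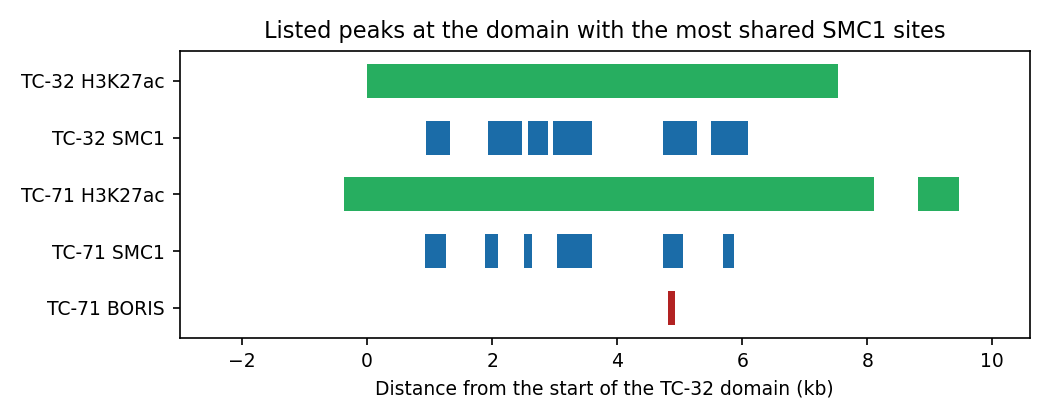
Map of the listed intervals around the 8q24.21 domain with 6 shared SMC1 sites: 1 track per line and antibody (y axis) against the distance from the start of the TC-32 domain in kb (x axis), drawn to scale with 1 bar per interval. The 6 SMC1 intervals of each line line up, a single TC-71 domain of 8484 bp spans them, and the BORIS interval lies at the fifth.

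At 3q29, the band of HES1, a repressor in the Notch pathway, the domain chr3:193851547-193860628 had a fold of 10.4 and held 3 shared sites of folds 7.40, 7.96 and 4.84. The TC-71 folds of these sites were 4.30, 4.62 and 4.23, and a TC-71 domain of 9444 bp covered them. The domain also held 5 SMC1 intervals of TC-32 alone. At 5q35.3, chr5:176881246-176883395, 3 sites overlapped a domain of 2150 bp and 2 of them met BORIS, with folds of 7.96 and 5.82. The last of the 3 had its summit 112 bp outside the domain, and its BORIS interval, of fold 5.82, lay outside too. At 8p22, chr8:13511682-13519719, 3 sites with TC-32 SMC1 folds of 12.3, 4.72 and 14.5 overlapped a weak domain (fold 2.82), the last with its summit 171 bp outside. The nearest TC-71 domain was 139859 bp from the first of them, while TC-71 SMC1 folds were 2.99, 5.50 and 8.03.

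The widest of the domains with several sites was at 7q31.2, the band of CAV1 and CAV2, which code for caveolins of the cell membrane, and of the receptor gene MET. It ran over 52677 bp, chr7:116125638-116178314, and held 2 shared and 4 TC-32-only SMC1 intervals. In TC-71 the same stretch was split into 11 domains. The stronger shared site, chr7:116166069-116166528, had SMC1 folds of 12.4 and 12.3 in the 2 lines and met BORIS at a fold of 4.72.

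The strongest SMC1 sites by −log10 q differed widely in acetylation. The site at 2q34, chr2:210288316-210288899, had folds of 35.0 in TC-32 and 10.5 in TC-71 and lay 577889 bp from the nearest TC-71 domain. The site at 12q12, chr12:39300379-39300845, had folds of 36.9 and 9.61 and was 486377 bp from it. The site at 5q31.3, chr5:140940326-140940854, had folds of 20.5 and 14.2 and was acetylated in both lines. At 3q21.3, chr3:126108057-126108502, the folds were 38.7 and 17.6, with BORIS at 5.20 and no TC-71 acetylation. At 1p36.32, chr1:2313122-2313526, a fold of 35.9 stood in a 445-bp domain at rank percentile 0.117, near the bottom of the list, with BORIS at 4.37. The domains of the 10 strongest sites thus ranged from the bottom of the list to percentile 95.3, that of the site at 12q24.23.

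The summit lay at the rim of the domain, outside it or within 200 bp of its edge, at 4 of those 10. At 8q21.3, chr8:90996287-90997135, it lay 39 bp inside. At 1q41, 11q13.2 and 16p13.3 the summit lay 110, 120 and 292 bp outside the domain. The last, chr16:2390670-2391350, had SMC1 folds of 26.9 and 17.8 and BORIS at 10.4, and the TC-71 domain reached over its summit.

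The strongest acetylated domain with a shared site was at 6q25.2, chr6:155053948-155055992, with a fold of 14.7. Its site had SMC1 folds of 14.0 and 7.25 and met BORIS at a fold of 5.81, and the TC-71 domain had a fold of 7.43. The next 4, at 14q11.2, 10q25.3, 11q22.3 and 12q14.1, had domain folds of 11.1 to 12.9 in TC-32, and each was acetylated in TC-71. Their SMC1 folds were 10.4, 3.66, 10.7 and 3.15. The SMC1 fold was thus above the median of 8.42 in 2 of these domains and below it in 2.

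The strongest domain with a shared site and no TC-71 domain within 10 kb was at 9p22.3, the band of the factor NFIB. It was chr9:14343393-14353544, 10152 bp wide, with a fold of 7.41. Its site, chr9:14353480-14353809, had SMC1 folds of 13.3 and 12.9 in the 2 lines, with the summit 119 bp outside, and the nearest TC-71 domain was 29392 bp away. The next 4 were at 11q13.4, 2q35, 11p15.4 and 1q32.2, with TC-71 domains 25532 to 140222 bp away. At 397 of the 2428 domains no TC-71 domain lay within 10 kb. No share over all TC-32 domains at this distance is set beside this count, so it is a description only. By overlap alone, 78.5% of the 2428 domains and 47.1% of all TC-32 domains met a TC-71 domain.

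The strongest BORIS intervals at shared sites were at 19q13.2, chr19:39420878-39421256, with a BORIS fold of 15.3, and at 15q26.3, chr15:102192569-102192770, with 14.1. The SMC1 folds were 7.98 and 7.40 at the first and 4.09 and 2.82 at the second, in TC-32 and TC-71. Both domains were acetylated in TC-71 as well. Over the 10 sites with the strongest BORIS by −log10 q, BORIS folds ran from 6.28 to 15.3, while SMC1 folds in TC-32 ran from 2.92 to 8.85, with 9 of 10 below the median of 8.42. Their TC-32 domains stood at rank percentiles of 73.7 to 98.3. The strongest BORIS was thus found at SMC1 sites of middling or low fold in strong domains. At 19p13.3, chr19:2819727-2819979, BORIS reached a fold of 15.2 with the SMC1 summit 100 bp outside the domain. At 2q14.1, chr2:118571961-118572273, with BORIS at 11.4, the nearest TC-71 domain was 3 bp from the SMC1 interval. It was the single site of these 10 without overlapping TC-71 acetylation. The sites with BORIS listed in TC-32 lay in domains of percentiles 95.4 to 96.4, and of these the site at 12q21.31, chr12:82752176-82752862, had BORIS in TC-71 too, at a fold of 5.10.

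The widest domain with a shared site was at 7q32.3, chr7:130577641-130649563, with 71923 bp. Its site, chr7:130644718-130644907, had SMC1 folds of 5.53 and 4.49 and lay in a TC-71 domain of 2612 bp. The next was at 22q13.31, the band of the host gene of let-7a-3 and let-7b microRNAs, with 60746 bp in TC-32 and a TC-71 domain of 2698 bp at the site. The fourth, at 19p13.2, chr19:13105603-13153251, had no TC-71 acetylation at its site, and the nearest TC-71 domain was 1417 bp away. The fifth was at 14q32.2, the band of the zinc finger factor BCL11B, with 45333 bp, and the TC-71 domain at its site had 12320 bp. These domains were named for their width in TC-32, so a narrower TC-71 domain beside them is a description of the choice.

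Along the genome, the share of shared SMC1 intervals that were acetylated in TC-32 was lowest on chromosome 18 (10.3%, 34 of 331) and on X (10.3%, 33 of 321). It was highest on 19 (18.8%, 122 of 649), 17 (18.3%, 130 of 710) and 22 (18.2%). Chromosome 19 carried 20.6 sites per 10 Mb and X 2.13. TC-71 acetylation of the sites was highest on 13 (90.2%, 55 of 61; 79.8 to 96.3%) and lowest on 14 (57.9%, 55 of 95; 47.3 to 68.0%). Of all TC-32 domains, 43.2% on 13 and 47.5% on 14 overlapped a TC-71 domain. Copy number, which differs between cell lines and moves enrichment, was not analysed here. By band, 19p13.3 held the most sites (24), then 8q24.21, 3q29 and 19p13.2 with 21 each. At 17p13.1, 19 of 39 shared intervals were sites, and 8 of the 19 were acetylated in TC-71.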

How the data were processed

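Chromatin was crosslinked with formaldehyde, sonicated and precipitated, per the labels' protocols. Per the submitters' processing notes, the build was hg19 and the tools included MACS2 2.1.1 and STAR 2.5.1b, with no settings given. Whether samples were pooled for peak calling is not given in the sources used here. A list was made per line and antibody against the input of that line, per the labels, and each pair of samples names a single list. The depth per sample is therefore unknown and replicates could not be compared. A deeper library gives a longer list.

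The authors deposited narrow peaks for SMC1 and BORIS and broad domains for H3K27ac. Each deposited peak has a score (10 times the −log10 q without decimals), a ratio (fold enrichment over input) and a −log10 q, among other columns. As the authors' own values, they served to describe and rank peaks inside a list. Folds of a site in both lines are set side by side as values only, since the lists differ in level.

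Rows of 1 interval with several summits were joined, with the values of the summit of highest −log10 q. This turned 34320 rows of TC-32 SMC1 into 32720 intervals. Overlap meant at least 1 bp. Shares have exact Clopper-Pearson 95% intervals, computed with scipy 1.17.1 in Python 3.11.15. Weighted shares reweight the rank or width deciles of a comparison class to those of the domains with a shared site. Bands came from the hg19 table of circlize 0.4.16. The overlap steps were tested on 4000 simulated sites, with 0 wrong calls.

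Sites were named by rule: the 10 with the highest SMC1 −log10 q, the 5 domains with the most sites, and the 5 to 10 highest by domain rank, without TC-71 domain within 10 kb, by BORIS and by width, of which examples are given. The members and lists were chosen with earlier results of these data known. The gene table at hand is of another build, so no gene was assigned and no sequence or motif was read. The alternatives changed the −log10 q minimum, the overlap needed, the list length, the merging of domains, the stitching distance and the distance allowed for TC-71 acetylation.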

Additional observations from a re-analysis of the deposited data

How the results depend on the processing

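No paired analysis was possible because each line and antibody has 1 list for both samples, with no column per replicate. For the same reason no replicate was left out. Depth is unknown, so a site absent from a list cannot be told from one below its threshold.

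The alternatives gave 59 values for the main results, of which 26 moved beyond the counting error of the reported value (for counts, by over 1.5 times) and 33 did not. The share with BORIS ranged from 7.09% to 8.05%, within its interval, while that of the TC-32-only acetylated sites ranged from 1.04% to 1.83%. With domains of −log10 q of at least 5, the median width was 2086 bp, the median rank 61.5, the summit was outside at 21.4% and within 200 bp of the edge at 25.4%, and the lead in TC-71 overlap over domains without SMC1 was 10.7 points. A stricter overlap asked that the TC-32 domain and a TC-71 SMC1 interval each cover at least 50% of the TC-32 SMC1 interval. TC-71 acetylation of a site was held to the same 50%. For the lead, a TC-71 domain had to cover at least 50% of the TC-32 domain. This left 1485 sites, with 65.6% acetylated in TC-71, a width of 2041 bp and a rank of 73.6. The relative distance was 0.402, with 2.22% outside, 9.23% near the edge and a lead of 9.08 points. With the summit inside, acetylation was 75.7%, width 2232 bp, rank 75.4, relative distance 0.384, near the edge 7.08% and outside 0% by construction. With lists of equal length, rank was 63.3, relative distance 0.558 and outside 26.0%, against 10.0% of the TC-32-only sites. Merging domains within 1 kb gave a width of 1922 bp. Allowing a TC-71 domain within 500 or 5000 bp gave 75.9% and 81.0%. Stitching at 5 kb gave 14.7% in top clusters. Under each alternative run, the relative distance of the TC-32-only sites (0.305 to 0.361) was below that of the shared sites (0.384 to 0.558).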
